A study of Mus musculus with 2 samples.

Results

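Glycogen is the store of glucose in the liver, and the genes described here encode the enzymes that build and degrade it and the subunits that control those enzymes. The set was fixed by name as 9 genes, and 7 of them were analysed among the 8551 genes with deposited values: Gbe1, Ugp2, Pygl, Phkb, Phkg2, Ppp1r3b and Ppp1r3c. Gys2, the liver glycogen synthase, and Phka2, the liver alpha subunit of phosphorylase kinase, were not analysed here. Liver poly(A) RNA was compared between 1 library of wild type mice (normal) and 1 library of db/db mice (diabetic), which carry a mutated leptin receptor and become obese and diabetic. Both groups were male and aged 9 weeks, were fed chow freely, and were killed about 3 h into the light phase. The strain background was taken as C57BL/6 for both, although the paper's methods name it for the normal mice only. The mice came from more than 1 supplier, and the sources used here do not state whether RNA of several mice was pooled. With 1 library per group, no difference has a replicate check, and the intervals below cover counting error only. The mutated gene, Lepr, was not analysed here, so the genotype labels could not be checked on it.

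To make glycogen, the hepatocyte converts glucose 1-phosphate to UDP-glucose with the pyrophosphorylase encoded by Ugp2, glycogen synthase adds the glucose to a growing chain, and the branching enzyme encoded by Gbe1 introduces branch points. To release glucose, glycogen phosphorylase, encoded in liver by Pygl, splits off glucose 1-phosphate. Phosphorylase is switched on by phosphorylase kinase, whose beta subunit is encoded by Phkb and whose catalytic gamma subunit in liver is encoded by Phkg2. Protein phosphatase 1 opposes the kinase, and the targeting subunits encoded by Ppp1r3b (GL) and Ppp1r3c (PTG) bring it to the glycogen particle, where it acts on the synthase and the phosphorylase.

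In the tag method used here, cDNA is cut with DpnII at GATC, and a tag that starts at a site is counted for its gene. Levels are given in TPM, which here means tags of a gene per 1000000 clean tags of its library. The deposited table names genes and not tags, so the last GATC with a full tag was located in a reference transcript of each member. These tags are shown because they are what the counts of this set would rest on if the last site was the one counted. All 9 transcripts held sites, from 8 in Gbe1 to 18 in Pygl and Phkb. The last tag lay in the 3′ UTR for 7 members and in the coding sequence for Pygl and Phka2, always in the last exon. Each of the 9 tags occurred in transcripts of its own gene only. Written 5′ to 3′ over 20 bases, with the DpnII site in capitals, they are:

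Gys2: GATCattgataggaacttgt
Gbe1: GATCcccctcacagtgttga
Ugp2: GATCctcaagagaagcttca
Pygl: GATCtgaagatttccctatc
Phka2: GATCtggacaacttggccat
Phkb: GATCatcttgctgtcatctt
Phkg2: GATCagggcagagatggaag
Ppp1r3b: GATCgtccagagtcactcaa
Ppp1r3c: GATCtgccatgctggaaaaa

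In the mouse build GRCm38, the tag of Ugp2 is at chr11:21321733-21321752 on the minus strand and that of Gbe1 at chr16:70569089-70569108 on the plus strand. The tag of Pygl is at chr12:70191023-70191042 on the minus strand, in exon 20. For the kinase subunits, it is at chr8:86061022-86061041 for Phkb and at chr7:127583200-127583219 for Phkg2, both on the plus strand. For the phosphatase subunits, it is at chr8:35387705-35387724 on the plus strand for Ppp1r3b and at chr19:36731858-36731877 on the minus strand for Ppp1r3c. The tags of the 2 members without values are at chr6:142422709-142422728 on the minus strand for Gys2 and at chrX:160598474-160598493 on the plus strand for Phka2. The distance from this site to the end of the transcript ran from 108 bases in Phkg2 to 628 bases in Gbe1. The last tag was common to all protein-coding transcripts of Gys2, Ugp2, Pygl, Phkg2, Ppp1r3b and Ppp1r3c, but to only 3 of 4 for Gbe1, 1 of 4 for Phkb and 1 of 5 for Phka2. Tags from other sites of these genes were not analysed here.

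The diabetic library held less Ppp1r3c, and none of the other 6 members reached a 1.5-fold difference. Pygl came closest from the other side, at 1.49-fold higher. Ugp2, Gbe1, Ppp1r3b and Phkg2 were higher by smaller factors, the last 2 not under every scaling of the libraries, and Phkb was lower. The first point of comparison is the fold threshold of 1.5. At least 1.5-fold higher were 0 of 7 members, where 34.4% of all genes were, and at least 1.5-fold lower was 1 of 7, where 15.3% of all genes were. Either way, this made 1 of 7 members against 49.7% of all genes. The second is the criterion of the study, a fold of at least 1.5 with a false discovery rate (FDR) under 0.001, here taken from an exact binomial test of each gene's reads (two-sided), a comparison of 2 libraries rather than of conditions. By this criterion 0 of 7 members were higher and 1 was lower, against 22.9% and 8.19% of all genes (31.0% either way). By the FDR alone, 5 of the 7 members passed, 4 higher and 1 lower, against 37.6% of all genes in either direction. These shares are not alike in depth, since passing the FDR depends on the number of reads. The members had 167 to 5590 reads, where the median over all genes was 71 in the normal and 111 in the diabetic library.

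**Figure D1:**
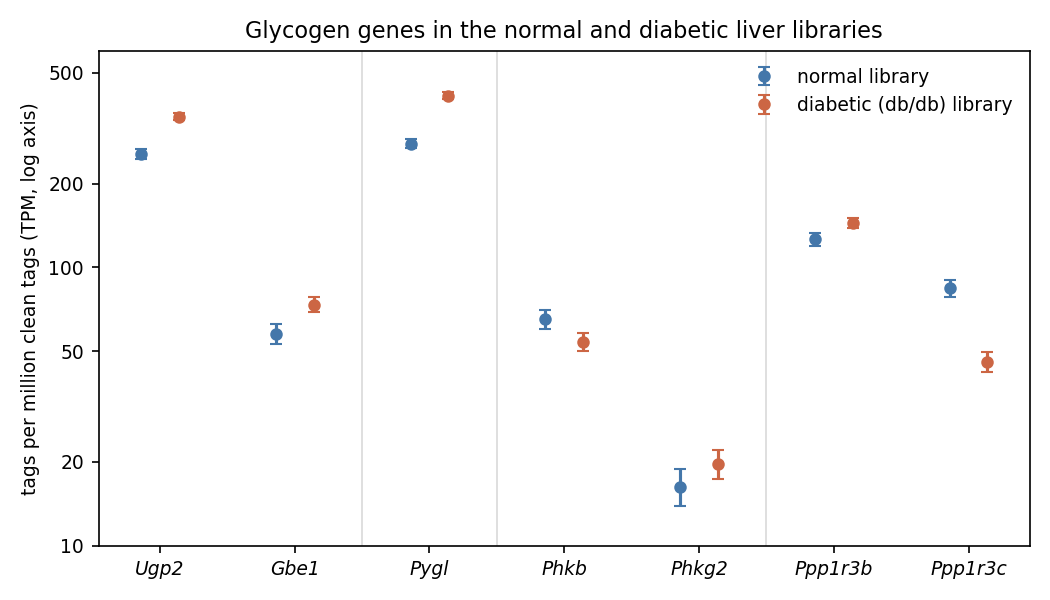
Level of each glycogen gene (TPM, log axis) in the normal library (blue) and the diabetic library (red), with 95% Poisson intervals that cover counting error only and grey lines between the synthesis, phosphorylase, kinase and phosphatase genes. Ppp1r3c is at 84.1 TPM in blue and 45.8 TPM in red, and Phkb is the only other gene that is lower in the diabetic library.

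Of the genes that make glycogen, Ugp2 (Entrez 216558) had 2624 reads (255 TPM) in normal liver against 4698 reads (348 TPM) in diabetic liver. That is a 1.36-fold higher level (95% interval, 1.30 to 1.43). Gbe1 (Entrez 74185) had 593 reads (57.7 TPM) in normal and 993 reads (73.5 TPM) in diabetic liver, 1.27-fold higher (95% interval, 1.15 to 1.41). Both genes were therefore above the normal library by more than counting error, and both stayed under 1.5-fold. Their log2 ratios of diabetic over normal level were 0.45 and 0.35, with an FDR of 1.3e-36 for Ugp2 and of 9.5e-06 for Gbe1 in the exact test.

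Pygl (Entrez 110095), which encodes the enzyme that degrades glycogen, had 2853 reads (278 TPM) in normal liver and 5590 reads (414 TPM) in diabetic liver. Its level was 1.49-fold higher (95% interval, 1.42 to 1.56, exact test FDR 1.5e-68), so the interval holds the 1.5-fold threshold. Ratios of reads between members do not depend on how the libraries are scaled to each other. The ratio of Pygl to Ugp2 reads went from 1.09 in normal to 1.19 in diabetic liver, a change of 1.09-fold (95% exact conditional interval, 1.02 to 1.17). The ratio of Pygl to Gbe1 reads changed 1.17-fold (95% interval, 1.04 to 1.31). Both changes lie just outside counting error, so Pygl was higher relative to each of the 2 synthesis genes by a small factor.

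Relative to Pygl, the kinase subunit gene Phkb was lower in the diabetic library, and Phkg2 was lower by a small factor. The other subunit genes, Phka1 and those for calmodulin, were not compared with Pygl in this way. Phkb (Entrez 102093) had 668 reads (65.0 TPM) in normal and 730 reads (54.0 TPM) in diabetic liver, which gives a log2 ratio of -0.27 (95% interval, -0.42 to -0.11). Its FDR in the exact test was 0.00155, so it did not pass 0.001. Phkg2 (Entrez 68961), with 167 reads (16.3 TPM) and 265 reads (19.6 TPM) in the same order, was the member with the fewest reads. Its log2 ratio of 0.27 had an interval of -0.01 to 0.56 and an exact test FDR of 0.096, so a difference was not detectable at this depth, and the ratio was below 0 under median-ratio scaling. Relative to Pygl, the reads of Phkb were 1.79-fold lower in the diabetic library (95% interval, 1.597 to 2.01). Those of Phkg2 relative to Pygl were 1.23-fold lower (95% interval, 1.01 to 1.51), near the limit of counting error.

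The 2 targeting subunits of protein phosphatase 1 differed from each other. Ppp1r3c (Entrez 53412) fell from 864 reads (84.1 TPM) in normal to 618 reads (45.8 TPM) in diabetic liver, 1.84-fold lower (95% interval, 1.66 to 2.04, exact test FDR 2.8e-30). It was the only member that met the criterion of the study, and it did not meet it in a beta-binomial test that assumed 20% variation between samples (FDR 0.162). That variation was not estimated from these data, which 1 library per group does not allow. Ppp1r3b (Entrez 244416) had 1298 reads (126 TPM) against 1951 reads (144 TPM). As deposited, this is a log2 ratio of 0.19 (interval, 0.09 to 0.30, with an FDR of 4.9e-04 in the exact test) and below 0 under each of 4 other scalings. The ratio of Ppp1r3b to Ppp1r3c reads was 1.502 in normal and 3.16 in diabetic liver. It changed 2.10-fold (95% interval, 1.85 to 2.39), the largest change among the 5 ratios between members that were compared.

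**Figure D2:**
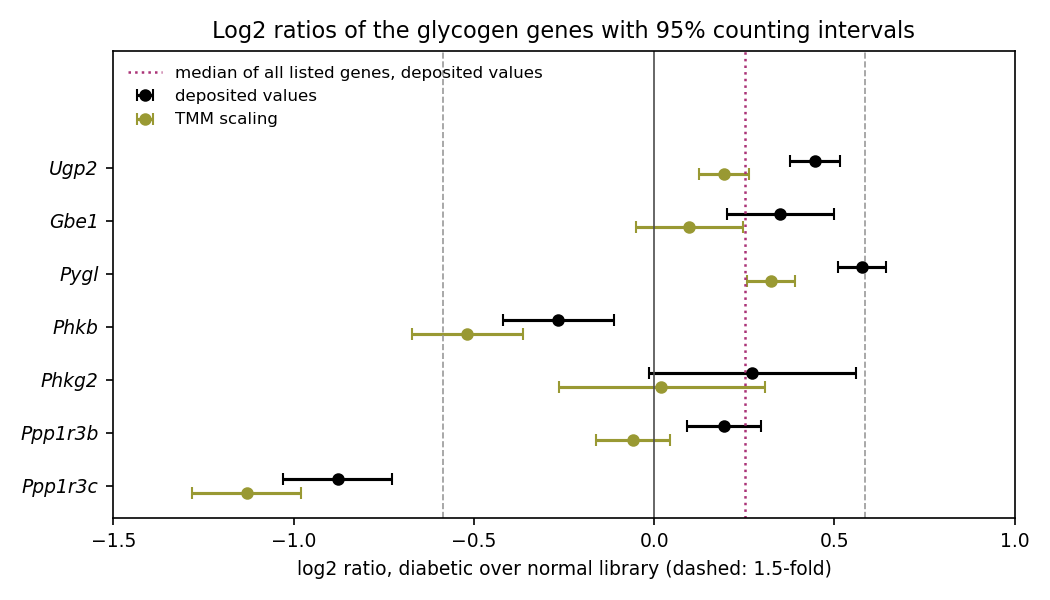
Log2 ratio of diabetic over normal level for each glycogen gene with its 95% Clopper-Pearson counting interval, from the deposited values (black) and after TMM scaling (olive), with dashed lines at 1.5-fold and a dotted line at the median of all genes, 0.25. Ppp1r3c is left of the lower dashed line in both, and Ppp1r3b passes from 0.19 to -0.06.

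Most genes were higher in the diabetic library, with a median log2 ratio of 0.25 over the 8551 genes, so the members were also placed against all genes. The median log2 ratio of the 7 members was 0.27. Pygl was at percentile 65.3 of all genes, Ugp2 at 59.6, Gbe1 at 54.7, Phkg2 at 50.9 and Ppp1r3b at 47.0. Phkb was at percentile 26.1 and Ppp1r3c at 8.54. Thus 6 of the 7 members lay between the quartiles of all genes, at log2 ratios of -0.30 and 0.81, and Ppp1r3c lay outside them.

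**Figure D3:**
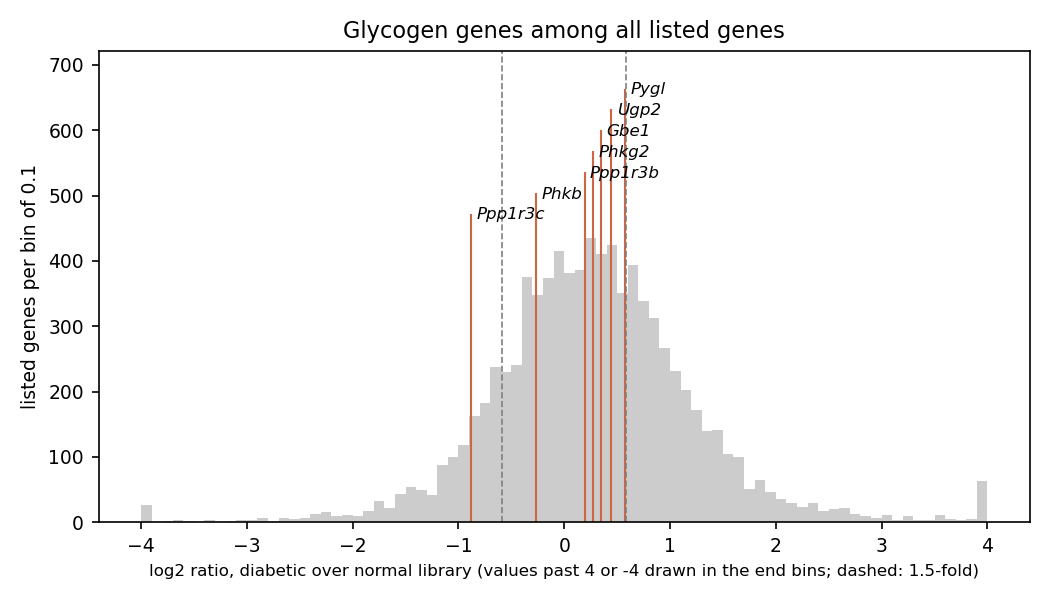
Histogram of the log2 ratio of diabetic over normal level for the 8551 genes in bins of 0.1, with a red line at each glycogen gene and dashed lines at 1.5-fold. The line of Ppp1r3c at -0.88 stands apart on the left, and 5 lines lie between 0.19 and 0.58.

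Trimmed mean of M values (TMM) scaling, which sets the bulk of the genes equal, lowered each log2 ratio by 0.25, and 3 other scalings lowered it by 0.26 to 0.31. Under TMM scaling Ppp1r3c was 2.19-fold lower and Phkb 1.43-fold lower, while Pygl was 1.25-fold and Ugp2 1.14-fold higher. Gbe1 was then 1.07-fold higher with a log2 interval of -0.05 to 0.25. Ppp1r3b had a log2 ratio below 0 under each of the 4 scalings, and Phkg2 under median-ratio scaling only. Under TMM scaling 0 members were at least 1.5-fold higher and 1 lower, against 24.0% and 23.6% of all genes, and under median-ratio scaling again 0 and 1, against 21.9% and 25.6%. The directions of Ppp1r3c, Phkb, Pygl, Ugp2 and Gbe1 were the same under all 4 scalings.

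Of 73 other genes of glycogen and glucose handling in 6 lists, 45 were analysed. The criterion of the study was met by 12 higher and 3 lower genes, against 22.9% and 8.19% of all genes. Under the 4 scalings the numbers were 10 higher and 8 to 10 lower. The share of all genes by the criterion under these scalings is not given here. By the fold alone, 19 of the 45 were higher and 6 lower, against 34.4% and 15.3% of all genes. Under TMM scaling 15 were at least 1.5-fold higher and 13 lower, against 24.0% and 23.6% of all genes. As deposited, the median log2 ratio over these 45 genes was 0.45. Among the other glycogen enzymes, Gyg, which encodes the glycogenin that primes each glycogen particle, rose from 48 to 245 reads. In TPM this was 4.67 against 18.1, a 3.88-fold higher level with a log2 interval of 1.51 to 2.44. It was the only 1 of 6 analysed enzymes of its list to meet the criterion. The major phosphoglucomutase, listed as Pgm2 (Entrez 72157) and named Pgm1 in the present RefSeq gene table, measured 37.8 TPM in normal and 52.6 TPM in diabetic liver. It had a log2 ratio of 0.48 (95% interval, 0.30 to 0.66), close to that of Ugp2, the next enzyme on the way to glycogen.

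Several enzymes that use or supply UDP-glucose outside glycogen differed by more than the members did. Of 6 analysed genes in this list, 3 rose and 1 fell by the criterion, against 22.9% and 8.19% of all genes. Under TMM scaling 3 were at least 1.5-fold higher and 3 lower, against 24.0% and 23.6% of all genes. Ugdh, which oxidises UDP-glucose to UDP-glucuronate, rose from 66.9 TPM to 231 TPM, 3.45-fold (688 and 3123 reads). Galk1 and Galm, which bring galactose into the pathway, rose by 1.54 and 1.32 on the log2 scale, to 83.1 TPM and 58.1 TPM. Uggt1, which uses UDP-glucose to tag misfolded glycoproteins, fell 2.83-fold from 13.4 TPM to 4.74 TPM (138 and 64 reads).

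Among glycogen-associated proteins and protein phosphatase 1, 5 of 15 genes were analysed. By the criterion 1 was higher and 1 lower, against 22.9% and 8.19% of all genes. Stbd1, which binds glycogen and anchors it to membranes, rose 2.10-fold from 49.5 TPM to 104 TPM (log2 interval, 0.92 to 1.22). Epm2aip1, whose product binds laforin, fell from 1269 to 914 reads, or from 123 TPM to 67.7 TPM. Its log2 ratio of -0.87 (95% interval, -0.99 to -0.74) was close to that of Ppp1r3c at -0.88. Ppp1ca, a catalytic subunit of protein phosphatase 1, was at 57.3 TPM and 40.9 TPM, a log2 ratio of -0.49 that lay within 1.5-fold, but past it under each of the 4 scalings. Calm2, one of the genes for the calmodulin that serves as the delta subunit of phosphorylase kinase, rose from 75.6 TPM to 145 TPM, unlike Phkb. The calmodulin genes encode the same protein. The study kept reads of unique genes apart from those of several genes, and whether Calm2 shares tags with the other calmodulin genes was not tested.

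Of 18 analysed kinases and receptors of glycogen metabolism, 5 were higher by the criterion and 0 lower, against 22.9% and 8.19% of all genes. By the fold alone, 7 of the 18 were higher and 2 lower, against 34.4% and 15.3% of all genes. Under TMM scaling 4 were at least 1.5-fold higher and 5 lower, against 24.0% and 23.6% of all genes. Gsk3a, a kinase that phosphorylates glycogen synthase, rose 1.92-fold from 27.6 TPM to 52.9 TPM. The other 4 that met the criterion encode subunits of protein kinase A, which acts upstream of phosphorylase kinase. The catalytic subunit genes Prkaca and Prkacb rose 1.75-fold and 2.71-fold, and the regulatory subunit genes Prkar1a and Prkar2a rose 1.69-fold and 2.83-fold. Under each of the 4 scalings Prkaca and Prkar1a were less than 1.5-fold higher. Gcgr, the glucagon receptor, was 1.34-fold higher at 183 TPM and 244 TPM, and Gnas, the stimulatory G protein subunit, 1.23-fold higher, with a log2 ratio below 0 under median-ratio scaling. Insr, the insulin receptor, had 36.6 TPM and 36.7 TPM, a log2 ratio of 0.01 (95% interval, -0.19 to 0.20) that was below 0 under each of the 4 scalings. Csnk2b, the regulatory subunit of casein kinase 2, had a log2 ratio of 0.13, also below 0 under each of them. Prkag1, a subunit of the AMP-activated kinase, had a log2 ratio of -0.33, within 1.5-fold, but past it under 3 of the 4 scalings.

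Where glucose enters and leaves the hepatocyte, Slc2a2, the glucose transporter GLUT2 of the liver, rose 3.11-fold from 77.6 TPM to 242 TPM (798 and 3263 reads). Slc37a4, which carries glucose 6-phosphate into the endoplasmic reticulum, was 1.37-fold higher at 523 TPM and 719 TPM. G6pc, the glucose 6-phosphatase, was at 46.7 TPM and 45.4 TPM, a log2 ratio of -0.04 (95% interval, -0.22 to 0.13). Under TMM scaling its log2 ratio was -0.29 (95% interval, -0.47 to -0.12), and under median-ratio scaling -0.35. Hk3, a hexokinase with few reads, fell 3.39-fold from 3.02 TPM to 0.89 TPM (31 and 12 reads). Of the 6 analysed genes in this list, 1 was higher and 1 lower by the criterion, against 22.9% and 8.19% of all genes.

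**Figure D4:**
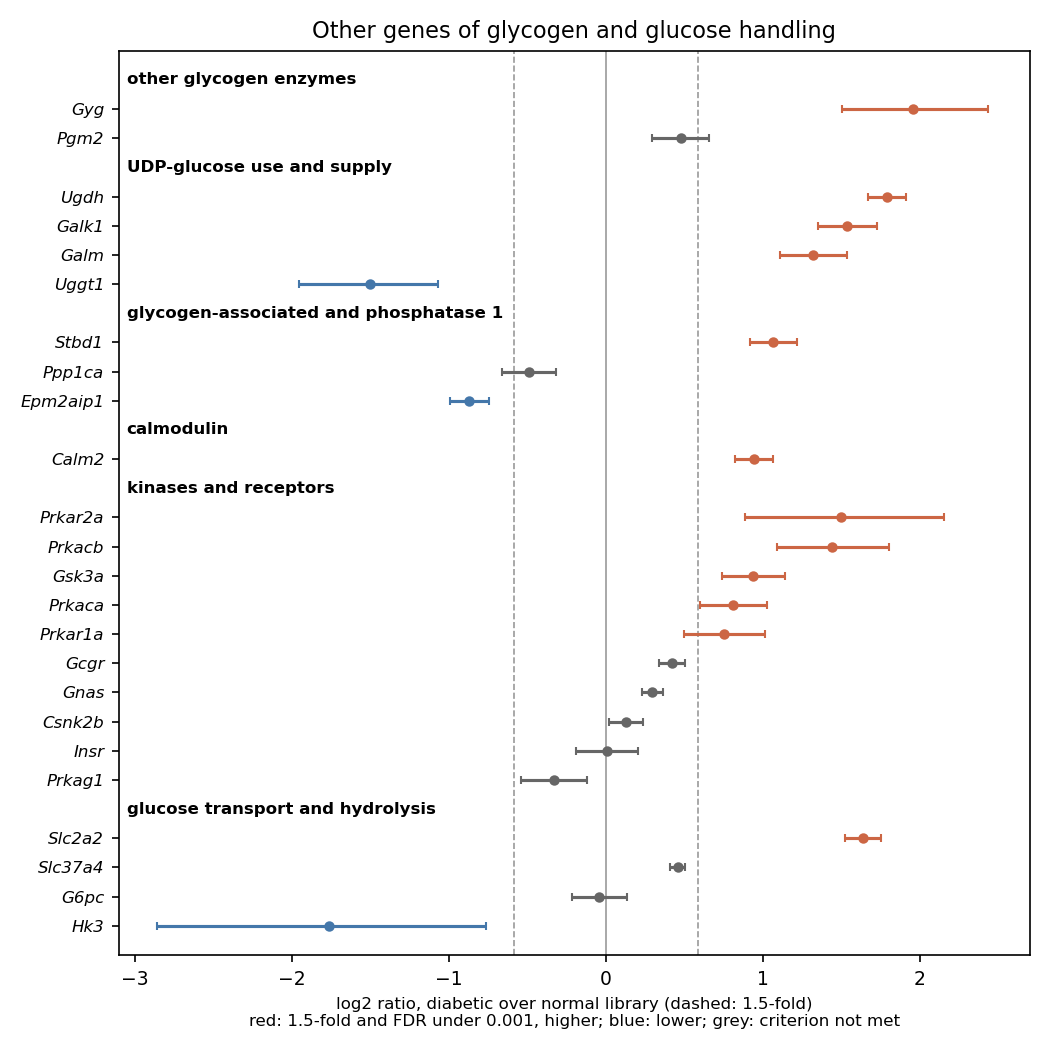
Log2 ratio of diabetic over normal level, with 95% counting intervals, for the other glycogen and glucose genes whose values are given above. Genes are grouped by role and coloured by the criterion. Pygb, Phka1, Gaa and Gsk3b are not drawn. Gyg is highest at 1.96 and Hk3 lowest at -1.76, with a wide interval of -2.86 to -0.76.

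In bulk liver RNA, fewer cells of a type and less RNA per cell cannot be told apart. Of the 8 hepatocyte markers, 6 were analysed, with a summed level of 16200 TPM in the normal and 18865 TPM in the diabetic library. Most of this sum came from Alb, at 6801 TPM and 6912 TPM, and Cyp2e1, at 6581 TPM and 7817 TPM. By the criterion 2 of the 6 were higher, Cps1 by 2.43-fold and Pck1 by 3.07-fold, and Tat and Ttr were lower within 1.5-fold. Over all genes, 22.9% were higher and 8.19% lower by the criterion. None of the 8 skeletal muscle markers and none of the 6 exocrine pancreas markers were among the analysed genes, which can still leave low levels. The 6 analysed macrophage markers summed to 105 TPM and 84.0 TPM, and most of this sum came from Cd5l, at 64.7 TPM and 62.9 TPM. By the criterion 2 of the 6 were lower, Emr1 by 2.05-fold and Csf1r by 2.14-fold, against 8.19% of all genes. At least 1.5-fold lower were 3 of the 6, against 15.3% of all genes. The 6 endothelial markers summed to 104 TPM and 89.4 TPM, with Kdr 1.85-fold higher and Clec4g 1.56-fold lower, both by the criterion. The 4 stellate markers summed to 93.8 TPM and 141 TPM, with Col1a1 higher by the criterion. Of the 3 cholangiocyte markers, Spp1 was higher at 57.2 TPM and 103 TPM, while Krt7 stood at 1.07 TPM and 1.18 TPM and Epcam at 3.21 TPM and 3.04 TPM. Alas2, the erythroid marker analysed, was at 51.9 TPM and 44.2 TPM. Cfd, the only 1 of 6 adipocyte markers analysed, was at 0.49 TPM and 11.8 TPM (5 and 160 reads). The part of these differences in the values of the glycogen genes was not tested.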

How the data were processed

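Tag profiles of liver from normal and db/db mice were made from 1 library each. For these the authors cut the cDNA of poly(A) RNA with DpnII and compared clean tags with RefSeq. The RPM values deposited by the authors, which they call TPM, are tags of a gene per 1000000 clean tags, rounded to 2 decimals, with 0.01 in place of 0 and genes of a mean under 1 left out. The submitters' processing notes name mm9. The aligner is not given in the sources used here. The number of columns of values per sample that were not used was 0.

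Above 0.01 the values were steps of 0.0973 TPM in the normal and 0.0740 TPM in the diabetic library, 1 step per read. This gave 10278531 and 13508232 clean tags. Within the rounding of the values (0.0514 and 0.0675 reads), 8511 of 8513 and 8536 of 8537 values were whole reads. On the analysed genes were 3809707 reads of the normal and 5993204 of the diabetic library. A count of 0 allows up to 3 reads, 0.292 or 0.222 TPM.

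Fold changes are diabetic over normal deposited values with no pseudocount. The 95% intervals are of the Clopper-Pearson kind for a gene and exact conditional ones for ratios between members. They cover counting error only, since tags carry no molecular identifiers. Reads of each gene were compared by an exact binomial test (two-sided), adjusted after Benjamini and Hochberg over 8551 genes to give the FDR, and 2655 genes met the criterion. The test compares libraries and is a second criterion beside the fold.

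The members and lists were chosen with earlier results of these data known. All members are named, and genes of the lists where they met the criterion of the study or had a mean of at least 20 TPM; others are described only by counts or as further values, and some genes of the lists are not reported here. Genes were matched by symbol, with Entrez identifiers from the table. Tags were located in GENCODE M21 transcripts (GRCm38), in the longest protein-coding transcript with a RefSeq match. Their length of 20 bases was assumed here, since none is given in the sources used here.

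Alternatives were 4 scalings, a fold threshold of 2, pseudocounts of 0.1 and 1 TPM, only genes whose mean reached 5 TPM, the test of Audic and Claverie, and, chosen after seeing the data, the FDR alone and a beta-binomial test with an assumed variation between samples of 20% or 40%. TMM trimmed 30% of log ratios and 5% of mean abundances at each end, median-ratio scaling used genes of at least 10 TPM and upper-quartile scaling the 75th percentile. The computation was tested on simulated reads with 200 changed genes. The software was matplotlib 3.10.9, scipy 1.17.1, numpy 2.4.6 and pandas 2.3.3 under Python 3.11.15.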

Additional observations from a re-analysis of the deposited data

How the results depend on the processing

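The counts of 0 higher and 1 lower member held under the 4 scalings, both pseudocounts, the minimum mean of 5 TPM and, for the criterion of the study, the Audic-Claverie test. With a fold threshold of 2, 0 members were lower by either rule. With an assumed variation between samples of 20%, 0 members and 0 related genes met the criterion in either direction, and likewise 0 with 40%. Over all genes 285 and 28 then met it, against 2655 in the exact test and 2632 in the Audic-Claverie test. These counts depend on the variation assumed, which was not estimated from these data, so they do not decide whether a member differs. At 20%, Ppp1r3c alone of the members had an unadjusted p under 0.05 in this beta-binomial test on 1 library per group (p = 0.035), and at 40% the number was 0. By the FDR alone, which depends on depth, 4 members were higher and 1 lower, and 16 and 5 related genes, against 37.6% of all genes either way. The median log2 ratio of the members was 0.01 with the summed reads set equal, 0.02 under TMM, -0.034 under median-ratio and 0.004 under upper-quartile scaling, against 0.27 as deposited.

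For the related genes, 10 were higher by the criterion under each scaling, against 12. Lower were 9 with the summed reads set equal, 8 under TMM, 10 under median-ratio and 9 under upper-quartile scaling, against 3, since each scaling lowers every ratio. The share of all genes moved the same way by the fold alone. At least 1.5-fold lower were 15.3% of all genes as deposited, 23.6% under TMM and 25.6% under median-ratio scaling. Of 32 named genes, 5 changed sign under at least 1 scaling, 2 of them members. A negative binomial exact test with an assumed variation was not run. No paired analysis was possible because each group has 1 library. Depth limits genes of few reads, and of the members Phkg2 alone had a counting interval that holds 0.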

Other observations

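Genes of the pathway with few reads gave values with wide intervals. Pygb, the brain form of glycogen phosphorylase, had 13 reads in normal and 47 in diabetic liver, which gives a log2 ratio of 1.47 (95% interval, 0.55 to 2.47). Phka1, the muscle form of the alpha subunit of phosphorylase kinase, had 16 and 53 reads, a log2 ratio of 1.33 (95% interval, 0.50 to 2.24). Both were at least 1.5-fold higher without meeting the FDR threshold. Gaa, the acid glucosidase that degrades glycogen in lysosomes, had 166 and 297 reads and a log2 ratio of 0.45 (95% interval, 0.17 to 0.73). Gsk3b, the other glycogen synthase kinase, had 160 and 142 reads and a log2 ratio of -0.57 (95% interval, -0.90 to -0.23), where Gsk3a was at 0.94. These genes were chosen after their values were seen.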
